A study of Mus musculus with 2 samples.

Results

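The proteasome genes of the array were those whose gene name in the scanner files began with Psma, Psmb, Psmc, Psmd, Psme, Psmf or Psmg and a number, leaving out Psmb8 and Psmb9. The rule took 59 probes for 47 genes, of 39429 probes and 30165 named genes in all. Of the 47 genes, 17 encode subunits of the core particle, 17 subunits of the regulatory particle, 4 activators, 7 assembly chaperones and 1 the inhibitor Psmf1. The remaining name, Psmc3ip, is a partner in meiotic recombination that was taken by its name alone and is no proteasome subunit. Signal well above background on both arrays was found for 45 of the 47 genes, against 16996 genes on the whole array.

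Bone marrow mononuclear cells, the blood-forming and immune cells of the marrow, were flushed from the femurs of C57/Bl6J mice aged 2 to 4 months. One culture received NYT (ninjin'yoeito, a herbal drug made from several plants) and the other, the negative control, received none, and RNA of both was taken at day 11. Each culture was read on 1 one-colour Agilent array, so no difference has a replicate check and no p-value was computed. Neither the dose of NYT nor which animals gave each culture is stated in the labels used here.

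The proteasome degrades proteins that carry ubiquitin chains. Its core particle is a barrel in which alpha subunits form the outer rings and beta subunits the inner rings, and Psmb5, Psmb6 and Psmb7 carry the cutting sites. The regulatory particle sits on the end of the barrel, where its non-ATPase subunits bind and trim ubiquitinated substrates and its ATPases unfold them. Interferon induces Psmb10, which replaces Psmb7 in the immunoproteasome of immune cells, and Psme1 and Psme2, which form an activator that can cap the core in place of the regulatory particle.

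Spot intensities were taken on the log2 scale and set relative to each array's 75th percentile, which was 728 on the NYT array and 1475 on the control array, a ratio of 2.03 between control and NYT. All differences below are log2, NYT minus control, after this scaling. Over all 16996 measured genes the median difference was 0.29, with quartiles of -0.28 and 0.68, so values are read against 0.29 and not only against 0. Without scaling the same median was -0.73. Spot noise is the only error at hand: over 247 probes printed 10 times, the median SD of a difference was 0.053, which leaves out the spread between cultures and hybridisations. Probes well above background made up 57.7% on the NYT array and 62.2% on the control array.

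The 2 particles of the proteasome were higher in the NYT culture relative to the median gene, while the activators and the interferon-induced core subunit Psmb10 were lower. This order of the classes was the same under all 12 processing settings tried, although the sign of the class medians of both particles turned negative when arrays were left unscaled or were scaled to spike-in RNAs. The median difference was 0.68 over 17 regulatory particle genes, 0.52 over 15 core particle genes, 0.52 over 7 assembly chaperones and -0.27 over 4 activators, against 0.29 over all measured genes. Of the 45 measured genes, 22 were at least 1.5-fold higher in the NYT culture, against 30.4% of all measured genes, and 0 were 1.5-fold lower, against 16.9%. Past 2-fold there were 3 higher genes, Psmb6, Psmd8 and Psmb5, a smaller share than the 11.2% of all genes, and 0 lower genes, against 11% of all genes. Past 3-fold there was 1, Psmb6, against 2.98% of all genes. In the brightest quartile of measured genes 11.9% were at least 2-fold higher. Proteasome genes were bright: 32 of the 45 lay in the brightest quartile of measured genes, where the median difference was 0.45 and 38.2% of genes were at least 1.5-fold higher. In these bulk cultures, fewer cells of a type and less RNA per cell cannot be told apart.

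**Figure D1:**
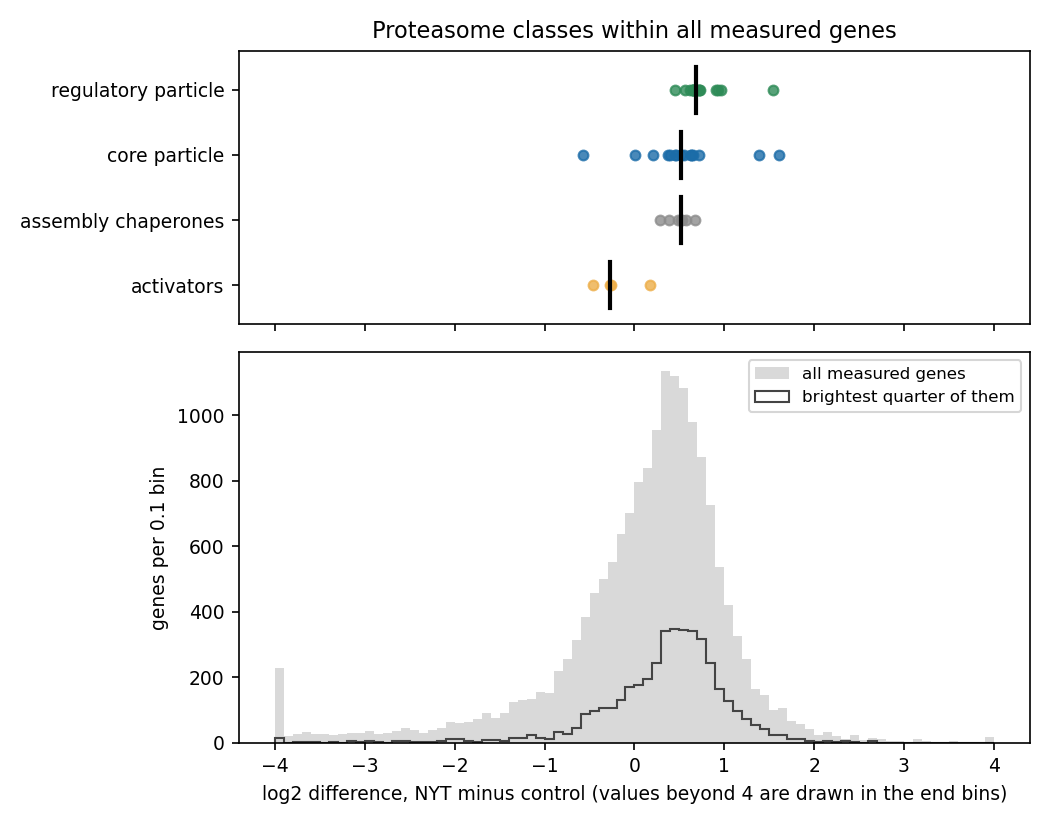
Log2 differences, NYT minus control, of the proteasome genes by class (upper panel, 1 point per gene, bar at the class median) above the distribution of all measured genes and of their brightest quartile (lower panel, genes per bin of 0.1). The median of the regulatory particle, 0.68, lies at the upper quartile of all measured genes. That of the activators, -0.27, lies just above the lower quartile of all measured genes, -0.28. Both particles' medians fall below 0 without scaling or with spike-in scaling.

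Among the subunits that carry the cutting sites, Psmb6 and Psmb5 stood highest and Psmb10 lowest. Psmb6, the caspase-like site, had an intensity of 85301 on the NYT array and 56654 on the control array. Its scaled difference was 1.61, or 3.05-fold higher in the NYT culture, above 97.2% of all measured genes. Psmb5, the chymotrypsin-like site and the target of bortezomib, had 86829 on the NYT array and 67267 on the control array. Both were brighter on the NYT array even before scaling, which was true of only 3 of the 45 genes. The scaled difference of Psmb5 was 1.39, or 2.61-fold, and its second probe gave 1.34. Psmb7, the trypsin-like site, had 4979 on the NYT array and 6117 on the control array, a scaled difference of 0.72. Psmb10, which takes the place of Psmb7, had 18848 on the NYT array and 56898 on the control array. Its scaled difference was -0.58, a NYT over control ratio of 0.671, and 17.1% of measured genes lay below it.

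Differences between these subunits do not depend on a scaling common to all probes. The difference of Psmb6 exceeded that of Psmb10 by 2.18, a 4.55-fold change in their ratio, and ranged from 2.07 to 2.18 over the 12 settings. Psmb5 exceeded Psmb10 by 1.96. Against Psmb7, the subunit it replaces, Psmb10 differed by -1.30. Psmb10 was the lowest core subunit under 12 of 12 settings and Psmb6 the highest under 11, the exception being the setting that kept dim probes. Settings that only shift a whole array could change neither these ranks nor the gaps. These gaps are many times the spot SD of 0.053, but Psmb6, Psmb7 and Psmb10 each rest on 1 probe read on 1 spot per array. That SD leaves out differences between probes, which were small for Psmb5, at 1.39 and 1.34, but larger for Psmd12, at 0.71 and 1.37. With 1 array per culture the spread between cultures is also unknown.

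The start-site windows of Psmb6, Psmd8, Psmb5, Psmb10 and Psme1 are printed since these genes lie at the ends of the range. They run from 250 bases before to 50 after the annotated start, from RefSeq on GRCm38.p6, and 39 of the 47 genes had one. Capitals mark matches on either strand to TGACNNNGC, the core of the antioxidant response element, in Psmb5, Psmb6 and Psmd8, and to the interferon response motif (GAAA, 2 bases of any kind, GAAA), or TTCNNNGAA, the interferon gamma activated site, in Psmb10 and Psme1. Psmb5 lies at chr14:54617946-54618245 on the minus strand, Psmb6 at chr11:70525107-70525406 on the plus strand, Psmd8 at chr7:29180624-29180923 on the minus strand, Psmb10 at chr8:105938343-105938642 on the minus strand and Psme1 at chr14:55578244-55578543 on the plus strand.
Psmb5: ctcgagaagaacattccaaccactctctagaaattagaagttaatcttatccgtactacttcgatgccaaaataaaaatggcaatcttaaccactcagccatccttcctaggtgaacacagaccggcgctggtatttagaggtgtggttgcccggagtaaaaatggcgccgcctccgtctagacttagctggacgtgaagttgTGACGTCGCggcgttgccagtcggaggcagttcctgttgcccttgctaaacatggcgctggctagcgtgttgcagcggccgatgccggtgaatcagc
Psmb6: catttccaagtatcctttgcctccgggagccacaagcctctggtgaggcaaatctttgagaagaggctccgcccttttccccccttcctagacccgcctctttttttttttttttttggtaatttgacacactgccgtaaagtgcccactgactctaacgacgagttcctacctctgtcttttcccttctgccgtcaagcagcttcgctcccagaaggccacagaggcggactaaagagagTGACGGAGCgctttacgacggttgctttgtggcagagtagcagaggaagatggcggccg
Psmd8: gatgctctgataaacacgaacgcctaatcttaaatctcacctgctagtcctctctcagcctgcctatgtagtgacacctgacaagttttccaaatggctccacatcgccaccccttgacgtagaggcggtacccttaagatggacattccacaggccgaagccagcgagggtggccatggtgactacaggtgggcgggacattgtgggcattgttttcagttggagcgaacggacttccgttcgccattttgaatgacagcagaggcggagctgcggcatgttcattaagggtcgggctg
Psmb10: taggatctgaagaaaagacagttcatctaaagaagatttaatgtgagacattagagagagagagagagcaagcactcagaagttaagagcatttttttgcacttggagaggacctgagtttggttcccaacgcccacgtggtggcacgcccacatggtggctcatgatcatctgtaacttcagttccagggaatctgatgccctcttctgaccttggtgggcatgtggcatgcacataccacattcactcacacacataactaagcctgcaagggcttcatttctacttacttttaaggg
Psme1: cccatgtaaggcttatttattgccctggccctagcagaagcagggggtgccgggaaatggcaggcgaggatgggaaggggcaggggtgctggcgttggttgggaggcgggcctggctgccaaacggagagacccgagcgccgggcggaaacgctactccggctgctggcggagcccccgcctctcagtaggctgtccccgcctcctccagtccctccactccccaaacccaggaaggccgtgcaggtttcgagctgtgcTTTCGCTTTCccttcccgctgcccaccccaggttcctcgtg

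The match in Psmb5 begins 47 bases before the start and that in Psmb6 9 bases before it. TGACNNNGC was found in 6 of 39 proteasome genes (Psmb5, Psmb6, Psmc6, Psmd9, Psmd12 and Psme4), and in 13.99% of the 27025 genes and 12.4% of the 32851 windows of the table, so its share among proteasome genes was near that of all genes. Psmd8, as high as Psmb5 and Psmb6, had no match in its window. The interferon response motif was found in 5 of 39 (Psmb3, Psmd4, Psmd9, Psme1 and Psmg4), against 3.99% of genes, and Psme1 was the only one of these 5 with a negative difference. TTCNNNGAA was found in 2 of 39, Psmd2 and Psmg1, against 9.55% of genes, and CCAAT in 14 of 39, against 41.1%. The window of Psmb10 held no match to the motifs marked in it, which says only that these letters are not in this window.

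The other beta subunits, which have no cutting site, ranged more widely than the alpha subunits. Psmb3 had a difference of 0.65 and Psmb4 of 0.63, both at least 1.5-fold higher. Psmb1 was at 0.40. Psmb2 had an intensity of 1263 on the NYT array and 2545 on the control array, a difference of 0.01, which placed it below the median gene. Over the 7 standard beta genes the median was 0.65 and the SD over genes 0.55, the widest of the classes.

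The alpha ring, whose subunits gate the entry to the barrel, was narrow. Its 7 measured genes had a median of 0.46, between 0.20 for Psma7 and 0.63 for Psma5, with an SD over genes of 0.14. Psma4 was at 0.55, Psma2 at 0.52, Psma6 at 0.46, Psma1 at 0.45 and Psma3 at 0.37. Psma5 alone passed 1.5-fold, and Psma7 alone lay below the median gene. The core particle as a whole had 6 of 15 genes at least 1.5-fold higher, close to the 38.2% of the brightest quartile of measured genes. Its median exceeded that of all genes by 0.23, but by 0.02 in the authors' deposited value table.

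**Figure D2:**
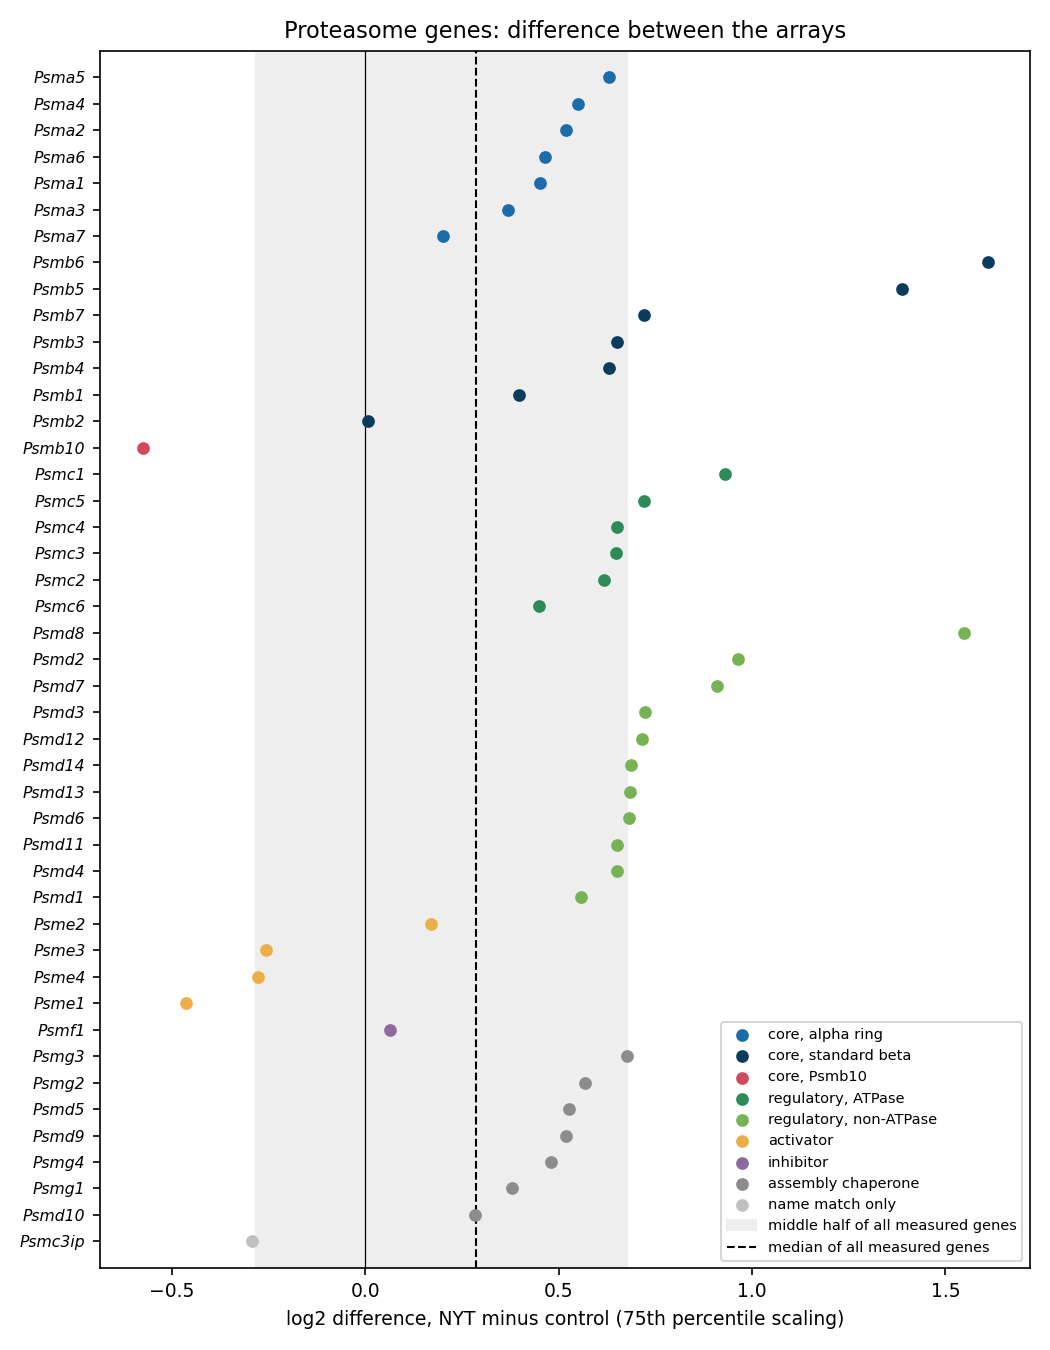
Log2 difference, NYT minus control, of each of the 45 measured proteasome genes, grouped and coloured by class, with the median of all measured genes (dashed) and their interquartile range (grey). Psmb6, Psmd8 and Psmb5 stand apart on the right, Psmb10 and Psme1 on the left, and the regulatory particle genes crowd near 0.68, a value that is -0.33 without scaling.

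The regulatory particle was uniform beside the core, with an SD over genes of 0.24 against 0.51. Under the main scaling all 17 genes lay above the median gene, and 11 lay within 0.1 of the class median of 0.68. With quantile normalization Psmc3 lay below the median gene, at 0.16 against 0.20, as it did in the authors' value table. With dim probes kept, Psmc6 did, at 0.45 against 0.50. Under the main scaling 15 of 17 were at least 1.5-fold higher, against 30.4% of all measured genes and 38.2% of the brightest quartile. With quantile normalization only 3 of 17 were, Psmd2, Psmd7 and Psmd8, a smaller share than the 27.0% of all measured genes. The count was 10 after normexp correction, against 32.4% of all measured genes, and 1 after loess, against 15.03%. It was 0 without scaling, against 2.86%, and 0 with the mean or the median of the spike-in RNAs, against 1.31% and 2.02%. Among the ATPases of the base, Psmc1 had the highest difference at 0.93, with 33453 on the NYT array and 35579 on the control array. Psmc5 was at 0.72, Psmc4 and Psmc3 at 0.65, Psmc2 at 0.62 and Psmc6 at 0.45. Second probes gave 0.50 for Psmc3 and 0.56 for Psmc2, both short of 1.5-fold, and 0.87 for Psmc1. Averaging the probes of each gene left 14 of 17 regulatory particle genes at least 1.5-fold higher, against 30.3% of all measured genes.

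Among the non-ATPase subunits, Psmd8, a subunit of the lid, stood apart. It had an intensity of 15092 on the NYT array and 10461 on the control array, a difference of 1.55 or 2.92-fold, above 96.8% of measured genes. It exceeded Psmd14, the deubiquitinase of the lid, by 0.86. Psmd2, a scaffold subunit of the base that binds ubiquitin receptors, was at 0.96, and Psmd7, the partner of Psmd14, at 0.91. The others lay between 0.56 for Psmd1, the second large scaffold of the base, and 0.72 for Psmd3. These were Psmd12 at 0.71, Psmd14 at 0.69, Psmd13 and Psmd6 at 0.68, and Psmd11 and Psmd4, a ubiquitin receptor, at 0.65.

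The value of Psmd8 rests on 1 probe, which spans 952 bases of the genome at chr7:29961170-29962121 (mm9) and so crosses a splice junction. Psmd12 is shown beside it because its 2 probes differed: the brighter, at chr11:107358963-107359022, gave 0.71 and the dimmer, at chr11:107347092-107347728, gave 1.37. The second probe of Psmb5, at chr14:55233161-55233220, is the one that gave 1.34. The 60-base probes are given as in the scanner files, with no letters marked.
Psmd8: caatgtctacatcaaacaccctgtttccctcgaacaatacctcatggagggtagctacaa
Psmd12, brighter: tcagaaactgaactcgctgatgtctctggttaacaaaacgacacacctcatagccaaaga
Psmd12, dimmer: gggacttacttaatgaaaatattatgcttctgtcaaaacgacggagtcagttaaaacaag
Psmb5, second: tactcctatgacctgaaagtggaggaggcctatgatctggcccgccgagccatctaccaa

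**Figure D3:**
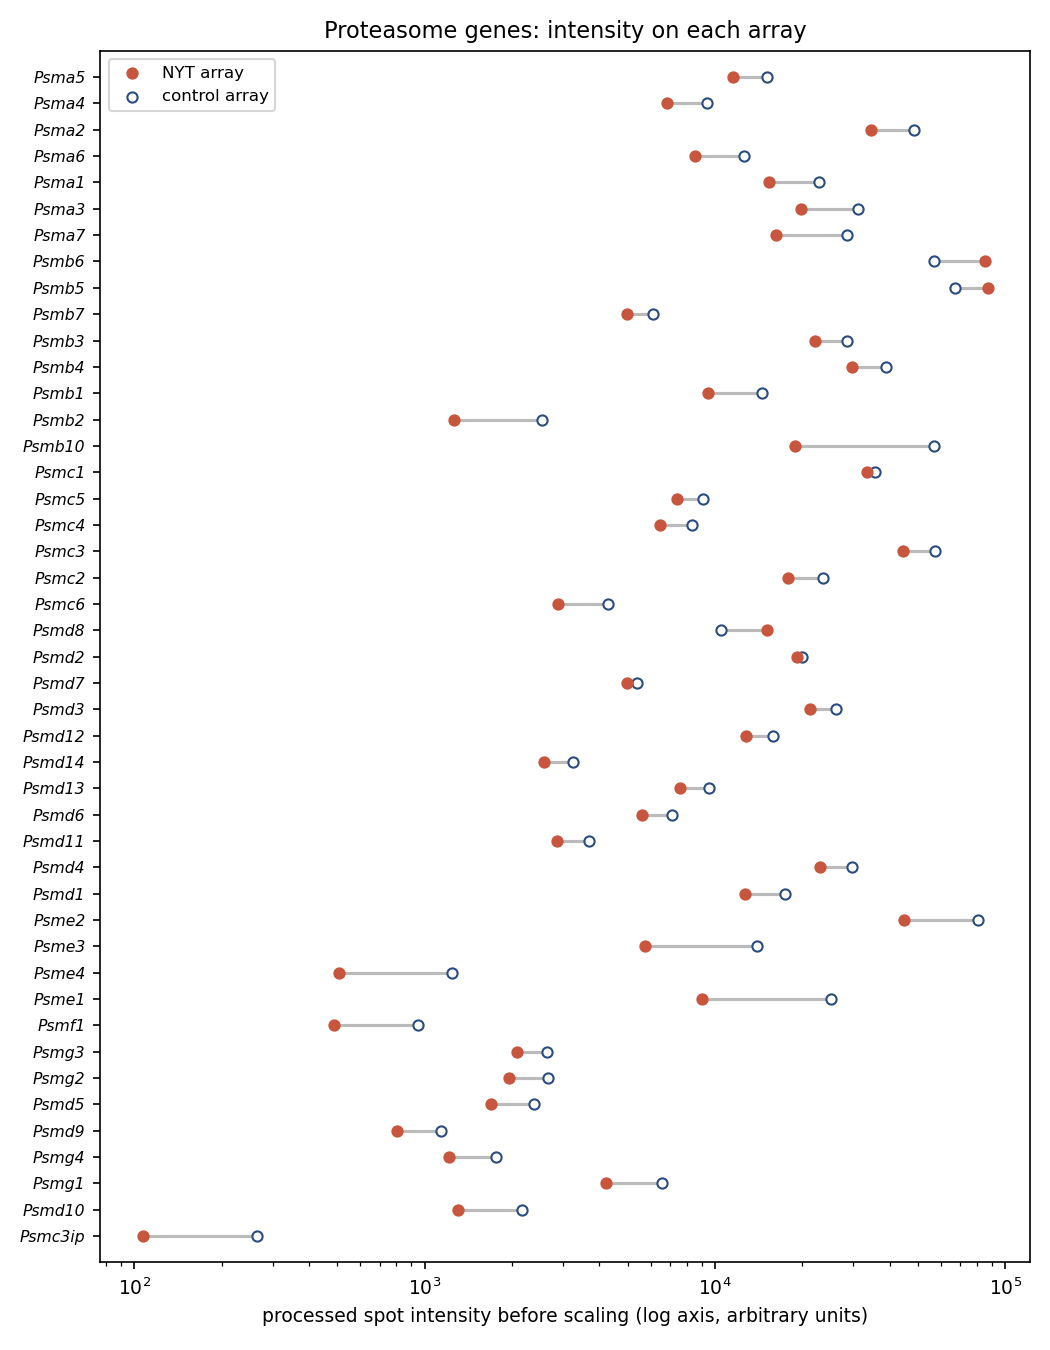
Processed spot intensity before scaling (log axis, arbitrary units) of each measured proteasome gene on the NYT array (filled) and the control array (open), in the order of the plot of differences. Psmb6, Psmb5 and Psmd8 are brighter on the NYT array, the other 42 genes are dimmer on it, and the widest gaps belong to Psmb10 and Psme1.

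The activators, which open the core without ATP, were the lowest class. Psme1 had 8993 on the NYT array and 25133 on the control array, a difference of -0.46. Its probe was read on 10 spots of the NYT array and 9 of the control array, with SDs of 0.040 and 0.024 on the log2 scale. Psme3, the nuclear activator, had 5743 on the NYT array and 13904 on the control array, a difference of -0.26. None of the 4 activators reached the median gene under the main scaling, and none was 1.5-fold lower.

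Psme2 and Psme4 are less certain. Psme2, the partner of Psme1, had 44621 on the NYT array and 80363 on the control array, a difference of 0.17, but its other probes gave -0.21 and -0.43. Its brightest probe also lists the transcript of a near-identical copy of the gene. Psme4, an activator used in histone turnover, had 508 on the NYT array and 1246 on the control array, a difference of -0.28, while its other probe gave 0.70. These were the 2 of 11 genes with a further probe whose probes differed in sign. Psmf1, an inhibitor of the core, had 489 on the NYT array and 947 on the control array, a difference of 0.06.

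Assembly chaperones, which build the particles and leave them, had a median of 0.52, equal to that of the core at this precision. With quantile normalization they were at 0.46, against 0.22 for the core and 0.47 for the regulatory particle. Those of the core were Psmg3 at 0.68, Psmg2 at 0.57, Psmg4 at 0.48 and Psmg1 at 0.38. Those of the regulatory particle base were Psmd5 at 0.53, Psmd9 at 0.52 and Psmd10 at 0.28. Second probes gave 0.70 for Psmd9 and 0.66 for Psmd10, both past 1.5-fold, and 0.26 for Psmg1. By the brightest probe of each gene only Psmg3, 1 of 7, passed 1.5-fold, against 30.4% of all measured genes.

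The tissue-specific core subunits were not measured on both arrays. Psma8, the alpha subunit of testis, had 25.4 on the NYT array, where it was well above background, and 23.9 on the control array, where it was not. Psmb11, the beta subunit of the thymus, had 9.59 on the NYT array and 5.56 on the control array and was well above background on neither. Psmc3ip had 106.8 on the NYT array and 264.8 on the control array, a difference of -0.29.

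Other genes of the ubiquitin and proteasome pathway were described from a list of 44, of which 43 were measured. Their median difference was 0.68, 25 of 43 passed 1.5-fold in the higher direction, against 30.4% of all measured genes. Past 2-fold, 7 were higher, against 11.2% of all genes, and 0 lower, against 11%. Nfe2l1, a transcription factor that drives proteasome genes when proteasome activity is low, had 648 on the NYT array and 325 on the control array, a difference of 2.01 or 4.04-fold. It was the highest of the list. Ddi2, the protease that releases it, was at 0.79 and Ngly1, which removes its sugars, at -0.55, the lowest of the list. Ngly1 had 71.5 on the NYT array and 211.8 on the control array, from 1 probe that was dim on the NYT array.

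Genes whose proteins bind or help build the particles lay on both sides of the median gene. Fbxo7, which binds Psmf1, was at -0.20, Midn at -0.02 and Ube3c, a ubiquitin ligase at the proteasome, at 0.27. Adrm1, a ubiquitin receptor of the regulatory particle, had 6286 on the NYT array and 6201 on the control array, a difference of 1.04. Uchl5, the deubiquitinase it holds, was at 0.50 and Usp14, the other deubiquitinase of the base, at 0.95. Sem1, a small lid subunit, was at 0.57, Pomp, which matures the core, at 0.78 and Ecpas, an adaptor of the proteasome, at 0.79. Zfand2a, which is induced by arsenite and binds the proteasome, was at 1.74, and Zfand5, a proteasome activator, at 1.32 with other probes between -0.40 and 1.18. Sqstm1, an autophagy receptor for ubiquitin, was at 1.23 with a second probe at 0.46. The hydrolases Uchl1 and Uchl3 were at 1.38 and 1.07, both from dim probes. Uchl1 had 88.6 on the NYT array and 69.1 on the control array, and Uchl3 had 53.8 on the NYT array and 51.9 on the control array.

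The interferon-induced genes were lower. Of 24 on the list 23 were measured, with a median of -1.22, and 15 were at least 1.5-fold lower, against 16.9% of all measured genes. Of these 12 were at least 2-fold lower, against 11% of all genes, and 2 of the 23 were at least 1.5-fold higher. Irf1 was at -2.68, Tap1, the peptide transporter subunit, at -1.55 and Nlrc5 at -1.33 with a second probe at -0.08. Tap2, the partner of Tap1, was at 0.02 and B2m at 0.32, and the 2 higher genes were Usp18 at 0.78 and Rsad2 at 0.70. Of the proteasome genes that interferon induces, Psmb10 was at -0.58, Psme1 at -0.46 and Psme2 at 0.17, each above the list's median. Whether the interferon-induced genes have a part in their values was not tested.

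Other large complexes gave values of similar size. The median difference was 0.68 for the regulatory particle and 0.52 for the core particle, against 0.36 over 9 chaperonin genes, 0.64 over 82 ribosomal protein genes, 0.71 over 37 complex I genes and 1.25 over 17 proton pump genes. Both particle medians lay within the range of these complexes.

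Cell type markers differed widely between the arrays. All 6 pan-leukocyte markers were measured on both, with a median scaled difference of -0.19 and 3 of 6 above 0. Their summed intensity before scaling was 125939 on the NYT array and 320484 on the control array. Of 68 markers in 11 lineage lists, 58 were measured on both arrays and 5 were detected on the control array only. Of the 58, 40 were at least 2-fold lower in the NYT culture, against 11% of all measured genes. At least 2-fold higher were 5, against 11.2%. List medians ran between -6.11 for mast cells and basophils and 0.31 for dendritic cells. Neutrophil markers were at a median of -3.28. Macrophage markers had a median of -0.93 but went both ways. Of 9, 4 were at least 2-fold lower, C1qa at -5.21, C1qb at -3.74, Mrc1 at -1.97 and Adgre1 at -1.01. The 3 at least 2-fold higher were Gpnmb at 1.65, Trem2 at 1.63 and Cd68 at 1.18. Their part in the proteasome values was not tested.

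**Figure D4:**
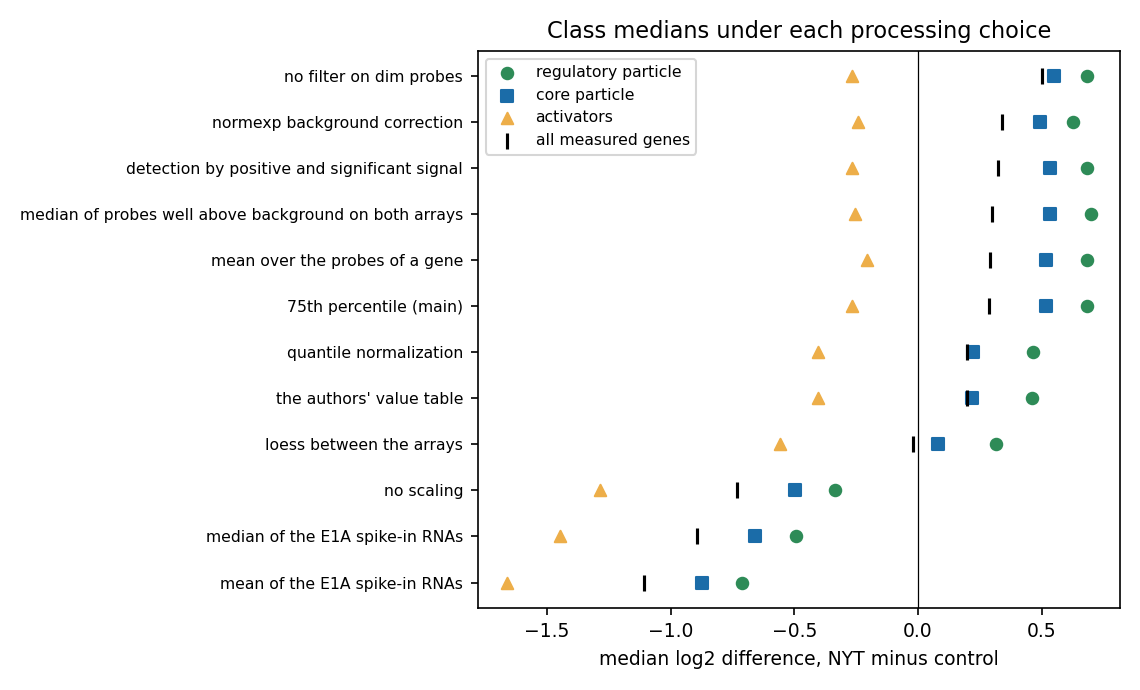
Median log2 difference, NYT minus control, of the regulatory particle, the core particle and the activators beside that of all measured genes, under each of 12 processing settings. The order of the 3 classes is the same in every setting shown, but settings that only shift a whole array cannot change it. The medians of both particles lie below 0 without scaling and with either spike-in scaling.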

How the data were processed

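Values came from 1 one-colour Agilent array per culture, grouped by the treatment in the labels. The authors deposited spot intensity values, and per the file headers the software was Agilent Feature Extraction 10.7.1.1 (9.5.1.1 in the submitters' processing notes), with spot flags and other annotation, and a value table of intensities for the same arrays. The labels and the design text name different RNA extraction kits. Outlier spots were left out, log2 intensities averaged per probe and each array's 75th percentile subtracted. A probe was detected when over 50% of its spots were well above background, and a gene was its brightest probe detected on both arrays. Probes were named through RefSeq (GRCm38.p6), and probe coordinates are those of the files (mm9). No test was possible, so genes were counted at 1.5-fold and 2-fold. The number of arrays limits the precision. The members, lists, motifs and named genes (every proteasome gene, and of the pathway list those at least 2-fold apart with Nfe2l1, Pomp, Adrm1, Sem1, Uchl5, Usp14 and Ecpas) were chosen with earlier results of these data known. Ddi2, Ngly1, Fbxo7, Midn, Ube3c and the named interferon and marker genes were added after their values were seen. Alternatives were run with limma 3.58.1 in R 4.3.3 and Python 3.11.15, with a normexp offset of 50 and a loess span of 0.3. The counting step was tested on simulated data.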

Additional observations from a re-analysis of the deposited data

How the results depend on the processing

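With 1 array per culture, every value lacks a replicate check, and spot noise is the only error. Scaling decided the sign of the medians of both particles and the assembly chaperones, while that of the activators was negative under all 12 settings. The cause of the dimmer NYT array was not tested. Without scaling, the median differences were -0.45 for all proteasome genes, -0.50 for the core particle, -0.33 for the regulatory particle, -1.29 for activators and -0.50 for assembly chaperones. Past 1.5-fold higher was 1 gene, against 2.86% of all measured genes, and past 2-fold higher 0, against 1.24%. Past 2-fold lower were 6, a smaller share than the 36.4% of all measured genes. Scaled to the mean of the E1A spike-in RNAs, the medians were -0.83, -0.88, -0.71, -1.66 and -0.88 in the same order, and Psmb5 was at -0.0083. The counts with these spike-in RNAs were 0, 0 and 12 genes, against 1.31%, 0.735% and 57.1% of all measured genes. One of 8 such RNAs differed by 2.25 and the others by -0.12 to 0.24, so their median was tried after seeing the data. It gave -0.61, -0.66, -0.49, -1.45 and -0.66, with 0, 0 and 8 genes, against 2.02%, 0.977% and 44.0% of all measured genes. Quantile normalization gave 0.33 for all proteasome genes, 0.22 for the core and 0.47 for the regulatory particle, against 0.20 for all measured genes. With it 6 proteasome genes were at least 1.5-fold higher, a smaller share than the 27.0% of all measured genes. The authors' value table gave 0.32, 0.22 and 0.46, against 0.20 for all measured genes, with 6 proteasome genes at least 1.5-fold higher, against 27.0%. Loess gave 0.18 for all proteasome genes, 0.079 for the core, 0.32 for the regulatory particle, -0.56 for activators and 0.27 for assembly chaperones. Under loess 3 genes were past 1.5-fold higher, against 15.03% of all measured genes, and 1 past 2-fold lower, against 13.99%. Both were smaller shares than those of all measured genes. Normexp gave 0.63 for the regulatory particle, and a 3-fold threshold left 1 gene, Psmb6. Keeping dim probes gave 5 genes at least 2-fold higher, against 15.7% of all genes under that setting. These include Psma8 and Psmb11, neither of which was well above background on both arrays. Above the median of all measured genes, the regulatory particle stood by 0.18 to 0.40 and the activators lay at -0.77 to -0.50 relative to it over the 12 settings. No paired analysis was possible because neither culture was repeated.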
